A study of Mus musculus with 10 samples.

Results

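Hox cluster genes were followed in the distal tips of the mouse lung between E11.5 and E17.5. The mouse genome holds 39 Hox genes in the 4 clusters A to D. They were found on the arrays by their symbols, as the probe sets that name 1 gene and whose symbol is Hox, a cluster letter and a paralog number. This gave 32 Hox genes of 17813 genes measured, with 9 of 11 in cluster A, 9 of 10 in cluster B, 7 of 9 in cluster C and 7 of 9 in cluster D. No Hox gene had more than 1 such probe set. The other 7 were not analysed here, among them *Hoxb8*, *Hoxd3* and *Hoxd4*, which lie only on probe sets that name several genes.

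*Id2-CreER* heterozygotes were mated with *Rosa26R-fGFP* homozygotes for both stages, and the labels give all embryos the genotype *Id2-CreER; Rosa26R-fGFP*. At E11.5, tip epithelium was microdissected by hand after dispase treatment, and the labels give no injection for this stage. At E17.5, GFP+ cells were sorted by flow cytometry from lungs dissociated with trypsin and EDTA, after an injection of the mother at E16.5 with 150 μg of tamoxifen per gram of body weight. In this line tamoxifen switches on a lasting GFP label in cells that express *Id2*. The authors describe the sorted E17.5 cells as tips with some of their immediate progeny. The E17.5 arrays also carried signal of endothelial and leukocyte markers, as given below. Each stage has 5 arrays, called biological replicates in the labels, and no source used here says whether they came from separate litters. The p-values therefore measure the spread between these arrays. Stage and way of isolation cannot be told apart in these samples.

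Hox genes encode homeodomain transcription factors that give cells a position along the head-to-tail axis. Within a cluster the genes lie in order of their paralog numbers, and low numbers are switched on earlier and nearer to the head than high numbers. Retinoic acid activates genes of low paralog number in the early embryo, Polycomb complexes hold the clusters silent elsewhere, and the TALE homeodomain proteins of the Pbx, Meis and Pknox families bind DNA together with Hox proteins. In the embryonic lung the Hox genes of paralogs 2 to 6 are known mainly from the mesenchyme around the epithelium, and loss of *Hoxa5* disturbs the development of the lung and airway.

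Of the 32 Hox genes, 4 were higher and 10 were lower at E17.5, and 18 did not pass the threshold (limma, Benjamini-Hochberg adjusted p under 0.05 over all genes). The 4 that rose were *Hoxa3*, *Hoxa9*, *Hoxb9* and *Hoxd9*, which is 12.5% of the Hox genes, beside 36.9% of all genes called higher. The 10 that fell were *Hoxa2*, *Hoxa4*, *Hoxb1*, *Hoxb2*, *Hoxb3*, *Hoxb4*, *Hoxb6*, *Hoxc4*, *Hoxc5* and *Hoxc6*, which is 31.2%, beside 31.5% of all genes called lower. The share lower was thus near that of all genes, and the share called in either direction was 43.8% of Hox genes beside 68.4% of all genes. The median difference of log2 signal, E17.5 minus E11.5, was -0.10 over the Hox genes and 0.03 over all genes.

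Large differences were mostly falls. At least 2-fold lower were 8 Hox genes, or 25% beside 16.3% of all genes, and at least 2-fold higher were 3, or 9.38% beside 24.2%. On 8 Hox genes every E17.5 array lay below every E11.5 array, or 25% beside 26.3% of all genes, and on *Hoxa3*, *Hoxa9* and *Hoxb9* every E17.5 array lay above, or 9.38% beside 32.3%. Values are log2 signals of 1 probe set per gene, so levels are compared between stages for a gene. Across genes they are set only against a rough level of dim signal, given below. In bulk samples, fewer cells that express a gene and less of its RNA per cell cannot be told apart.

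**Figure D1:**
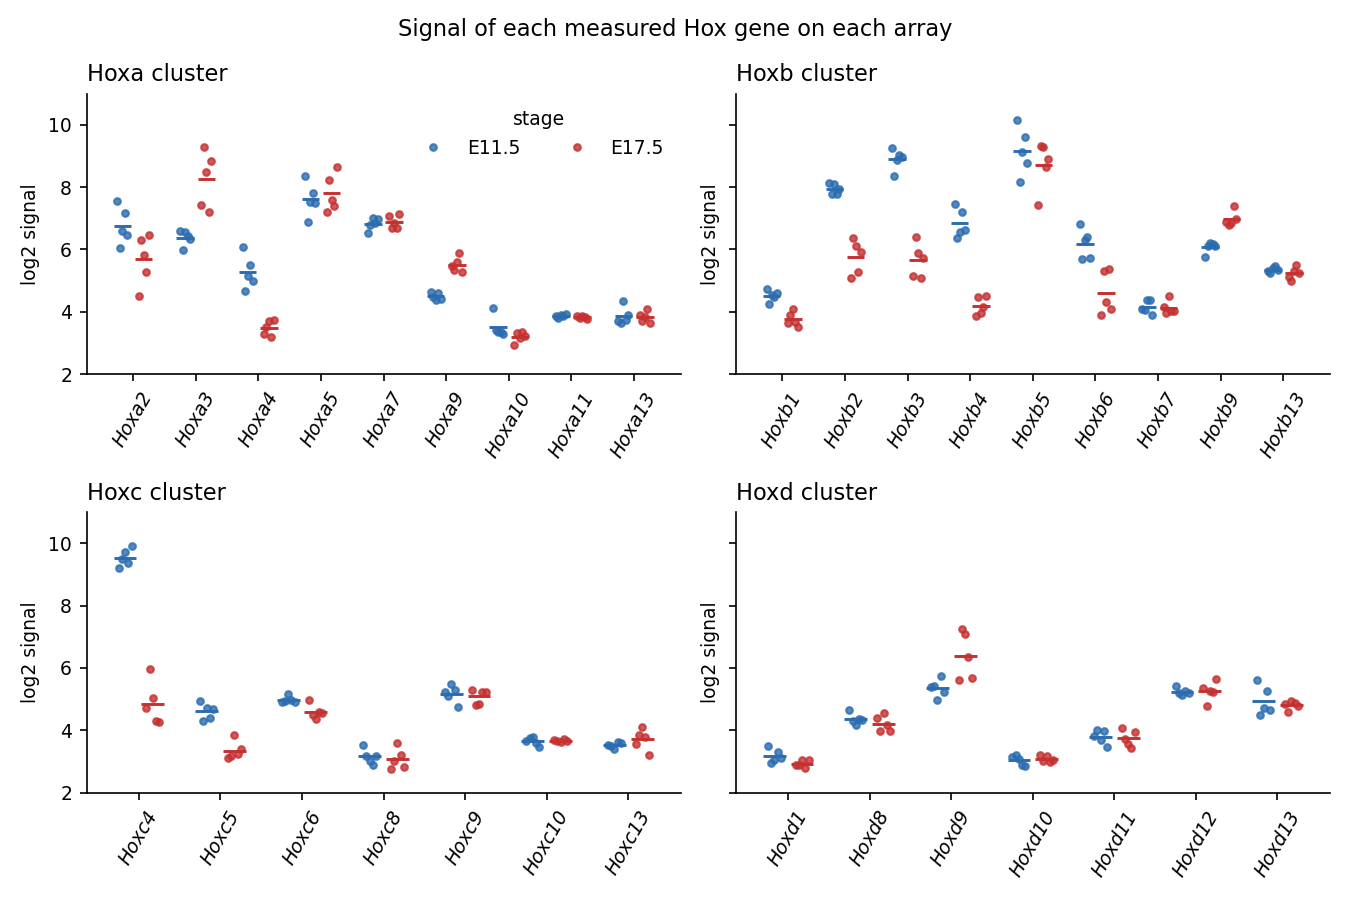
Log2 signal of each of the 32 measured Hox genes on each of the 10 arrays, by cluster, with E11.5 arrays in blue, E17.5 arrays in red and bars for the means over the 5 arrays of a stage. The stages stand apart furthest for *Hoxc4*, which went from a mean of 9.54 to 4.86, and in cluster B the 4 genes from *Hoxb1* to *Hoxb4* are all lower at E17.5.

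By paralog number, the falls lay at the low end and the rises, apart from *Hoxa3*, at paralog 9. Of the 9 measured genes of paralogs 1 to 4, 7 fell, *Hoxa3* rose and *Hoxd1* was not called, with a median difference of -1.79. Of the 9 genes of paralogs 5 to 8, 3 fell and 0 rose, with a median of -0.16. Of the 14 genes of paralogs 9 to 13, 3 rose and 0 fell, with a median of -0.01. All 3 that rose were of paralog 9, where *Hoxc9* did not pass the threshold. Of all genes, 36.9% were called higher and 31.5% lower. The share lower in paralogs 5 to 8 was near that of all genes, and the share higher in paralogs 9 to 13 was under that of all genes. By cluster, the median was -0.03 in A with 2 genes higher and 2 lower, -0.75 in B with 1 higher and 5 lower, -0.09 in C with 0 higher and 3 lower, and -0.04 in D with 1 higher and 0 lower. These medians describe the members and were not tested against other genes, and those of clusters A and D and of paralogs 9 to 13 lay near 0 and changed sign when single arrays were left out.

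**Figure D2:**
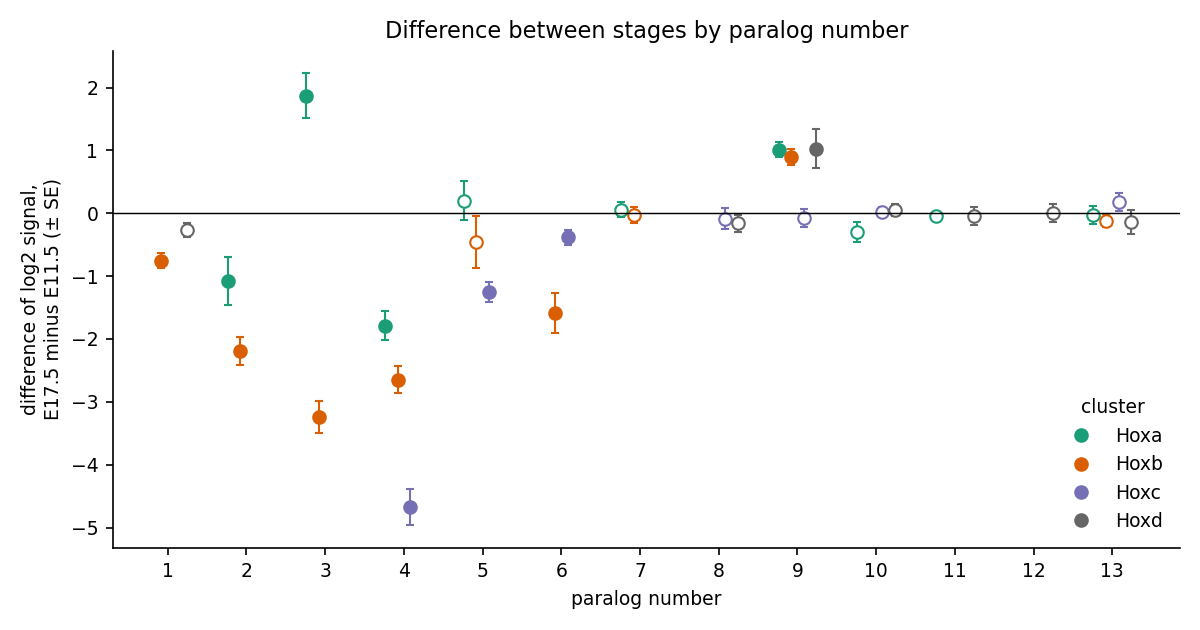
Difference of mean log2 signal, E17.5 minus E11.5, of each measured Hox gene (with its standard error from limma) against paralog number, coloured by cluster, with filled points for genes called at an adjusted p under 0.05. Paralog 4 is lower in all 3 clusters measured, the paralog 3 genes of clusters A and B lie on opposite sides of 0, and above paralog 9 no gene was called.

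Among paralogs 1 and 2, *Hoxb1*, *Hoxb2* and *Hoxa2* fell. These genes pattern the hindbrain and the neural crest of the head in the early embryo. *Hoxb2* measured 8.13, 7.79, 8.09, 7.79 and 7.94 on E11.5 replicates 1 to 5 and 5.08, 6.38, 6.13, 5.29 and 5.92 on E17.5 replicates 1 to 5. The stages did not overlap, and all 5 E11.5 arrays lay within 0.35 of each other while the E17.5 arrays spread over 1.30. The fall was 4.56-fold, or -2.19 with a standard error of 0.23 (adjusted p = 2.4e-06, limma). *Hoxa2* measured 7.54, 6.06, 6.58, 7.16 and 6.46 at E11.5 and 4.52, 6.32, 5.83, 5.28 and 6.47 at E17.5. Here the stages overlapped, since E17.5 replicates 2 and 5 lay above the lowest E11.5 array. Its difference was -1.08 with a standard error of 0.38 (2.11-fold, adjusted p = 0.023, limma), and it lost the call without E11.5 replicate 1 (-0.88, adjusted p = 0.061), without E11.5 replicate 4 (-0.98, adjusted p = 0.056) or without E17.5 replicate 4 (-0.98, adjusted p = 0.052). *Hoxb1* went from 4.51 ± 0.18 (SD, n = 5) to 3.76 ± 0.22 (SD, n = 5) with no overlap (1.68-fold, adjusted p = 0.00016, limma). *Hoxd1* was at 3.18 and 2.92 on average, a difference of -0.26 that missed the threshold (adjusted p = 0.055, limma).

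The paralog 3 genes went opposite ways. *Hoxb3* measured 9.24, 8.35, 8.87, 9.04 and 8.95 at E11.5 and 5.15, 6.41, 5.90, 5.08 and 5.72 at E17.5, so that every E17.5 array was at least 1.9 below the lowest E11.5 array. The fall was 9.44-fold, with a difference of -3.24 and a standard error of 0.25 (adjusted p = 1.6e-07, limma). *Hoxa3*, needed for the thymus and parathyroid glands, measured 6.58, 5.97, 6.57, 6.43 and 6.32 at E11.5 and 7.44, 9.29, 8.47, 7.21 and 8.84 at E17.5. All E17.5 arrays lay above all E11.5 arrays, and replicates 2, 3 and 5 were more than 1 above replicates 1 and 4. The rise was 3.66-fold, with a difference of 1.87 and a standard error of 0.35 (adjusted p = 0.00047, limma). In the RefSeq annotation the span of *Hoxa3* covers *Hoxa4*, *Hoxa5*, *Hoxa6* and 2 non-coding genes, and its probe set is of a kind (suffix s) that can match several transcripts, so the signal cannot be given to 1 transcript of this locus. On *Hoxa4*, within that span, the signal went the other way. The probe sets of *Hoxa4* and *Hoxa5* (suffix x) and of *Hoxb6* and *Hoxa10* (suffix a) are also of kinds that can match several sequences. When such probe sets were left out, these genes and *Hoxa3* had no value.

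Paralog 4 was lower at E17.5 in each cluster measured. *Hoxc4* had the largest fall of all Hox genes measured. It stood at 9.21, 9.49, 9.71, 9.37 and 9.90 at E11.5 and at 4.72, 5.97, 5.05, 4.31 and 4.26 at E17.5, and the stages were more than 3 apart at their nearest arrays. Its mean fell by 4.68 on the log2 scale with a standard error of 0.29 (25.6-fold, adjusted p = 1.9e-08, limma). *Hoxb4* measured 7.46, 6.37, 6.57, 7.20 and 6.62 at E11.5 and 3.86, 4.47, 3.97, 4.15 and 4.50 at E17.5. The fall of *Hoxb4*, known also for its use in expanding blood stem cells, was 6.28-fold (-2.65, standard error 0.21, adjusted p = 2.5e-07, limma). *Hoxa4* measured 6.08, 4.66, 5.14, 5.50 and 5.00 at E11.5 and 3.30, 3.52, 3.69, 3.19 and 3.73 at E17.5, with every E17.5 array under 3.8 and every E11.5 array over 4.6. Its fall was 3.46-fold (-1.79, standard error 0.23, adjusted p = 1.9e-05, limma).

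*Hoxa5* and *Hoxb5*, the Hox genes best known from the lung, did not pass the threshold. *Hoxa5* measured 8.35, 6.90, 7.51, 7.80 and 7.50 at E11.5 and 7.21, 8.22, 7.59, 7.40 and 8.64 at E17.5. The stages overlapped over most of their range, and the difference was 0.20 with a 95% interval of -0.47 to 0.88 (adjusted p = 0.59, limma). *Hoxb5* measured 10.14, 8.15, 9.14, 9.62 and 8.78 at E11.5 and 7.44, 9.31, 9.29, 8.64 and 8.89 at E17.5. Both stages spread by more than 1.8, and the difference was -0.45 with a 95% interval of -1.35 to 0.45 (adjusted p = 0.36, limma). A 2-fold fall lies inside the interval of *Hoxb5*, and a 2-fold rise lies just above the upper end of that of *Hoxa5*. The arrays therefore do not show that the level of either gene stayed the same. *Hoxc5*, the third member of the paralog, measured 4.94, 4.30, 4.73, 4.40 and 4.68 at E11.5 and 3.11, 3.17, 3.84, 3.23 and 3.41 at E17.5. It fell 2.39-fold with no overlap (-1.26, standard error 0.16, adjusted p = 1.7e-05, limma).

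Of the paralog 6 genes, *Hoxb6* measured 6.80, 5.70, 6.30, 6.40 and 5.72 at E11.5 and 3.90, 5.30, 4.33, 5.37 and 4.11 at E17.5. Its E17.5 arrays were uneven, with replicates 2 and 4 more than 0.9 above the other three, but all lay below E11.5. The fall was 2.99-fold (-1.58, standard error 0.32, adjusted p = 0.00077, limma). *Hoxc6* went from 4.98 ± 0.11 (SD, n = 5) to 4.60 ± 0.22 (SD, n = 5). Its fall of 1.30-fold passed the threshold (adjusted p = 0.01, limma), although E17.5 replicate 1, at 4.97, lay within the E11.5 range. The measured genes of paralogs 7 and 8, *Hoxa7*, *Hoxb7*, *Hoxc8* and *Hoxd8*, differed by -0.16 to 0.06 and were not called.

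Of the 4 paralog 9 genes, 3 rose, by 1.87-fold to 2.04-fold. Paralog 9 genes are known from the patterning of the thoracic skeleton and the limb. *Hoxa9* measured 4.64, 4.47, 4.38, 4.60 and 4.42 at E11.5 and 5.48, 5.34, 5.58, 5.90 and 5.27 at E17.5, with a gap of more than 0.6 between the stages. It rose 2.02-fold (1.01, standard error 0.12, adjusted p = 9.5e-06, limma). *Hoxb9* rose 1.87-fold, from 6.07 ± 0.17 (SD, n = 5) to 6.97 ± 0.24 (SD, n = 5), also without overlap (adjusted p = 5e-05, limma). *Hoxd9* measured 5.41, 5.43, 4.99, 5.73 and 5.24 at E11.5 and 5.60, 7.24, 7.08, 6.34 and 5.67 at E17.5. Its E17.5 replicates 1 and 5 lay within the E11.5 range and replicates 2 to 4 above it, and the rise was 2.04-fold (1.03, standard error 0.31, adjusted p = 0.011, limma). *Hoxc9* was at 5.17 ± 0.27 and 5.09 ± 0.23 (SD, n = 5 each; adjusted p = 0.69, limma). All 10 measured genes of paralogs 10 to 13, which pattern the lower trunk, limbs and urogenital tract, missed the threshold. They were *Hoxa10*, *Hoxa11*, *Hoxa13*, *Hoxb13*, *Hoxc10*, *Hoxc13*, *Hoxd10*, *Hoxd11*, *Hoxd12* and *Hoxd13*, with differences of -0.30 for *Hoxa10* to 0.17 for *Hoxc13*. Most of these genes had dim signals at both stages, as given below, so they do not show that high paralogs held their level.

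The promoters of the called genes with the largest falls and rises are shown as sequence, where the RefSeq table of promoter windows (GRCm38.p6, 300 bases that run from before an annotated start to just after it) holds them, because retinoic acid and Hox proteins are known to act through short motifs near several Hox genes. Windows were found for 18 of the 32 measured Hox genes, and of *Hoxa10* and *Hoxd11*, which have several, the one listed first was used. Capitals mark the retinoic acid receptor half-site AGGTCA, searched on both strands and reading TGACCT where it lies on the other strand. The windows lie at chr15:103034145-103034444 (plus strand) for *Hoxc4*, chr11:96318017-96318316 (plus strand) for *Hoxb4*, chr6:52213018-52213317 (minus strand) for *Hoxa3* and chr2:74697513-74697812 (plus strand) for *Hoxd9*, each written 5′ to 3′ on the strand of the gene. The window of *Hoxa3* belongs to the start of its longest annotated span, which lies beyond *Hoxa6*.
Hoxc4: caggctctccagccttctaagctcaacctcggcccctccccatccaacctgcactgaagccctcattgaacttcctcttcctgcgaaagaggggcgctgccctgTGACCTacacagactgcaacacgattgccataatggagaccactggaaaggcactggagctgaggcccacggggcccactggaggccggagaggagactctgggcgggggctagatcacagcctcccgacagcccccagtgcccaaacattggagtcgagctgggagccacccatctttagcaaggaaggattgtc
Hoxb4: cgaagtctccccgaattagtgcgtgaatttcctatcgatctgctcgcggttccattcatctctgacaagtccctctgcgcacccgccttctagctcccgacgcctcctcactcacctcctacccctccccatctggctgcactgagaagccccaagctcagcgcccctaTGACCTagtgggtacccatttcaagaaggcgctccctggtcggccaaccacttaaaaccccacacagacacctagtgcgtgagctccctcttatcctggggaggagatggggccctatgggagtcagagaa
Hoxa3: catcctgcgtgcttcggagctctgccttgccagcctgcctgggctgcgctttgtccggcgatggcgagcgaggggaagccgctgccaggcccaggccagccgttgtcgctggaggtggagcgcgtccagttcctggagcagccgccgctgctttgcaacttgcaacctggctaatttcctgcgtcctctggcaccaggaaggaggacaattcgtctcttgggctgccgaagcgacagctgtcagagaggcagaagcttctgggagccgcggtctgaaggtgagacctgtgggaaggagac
Hoxd9: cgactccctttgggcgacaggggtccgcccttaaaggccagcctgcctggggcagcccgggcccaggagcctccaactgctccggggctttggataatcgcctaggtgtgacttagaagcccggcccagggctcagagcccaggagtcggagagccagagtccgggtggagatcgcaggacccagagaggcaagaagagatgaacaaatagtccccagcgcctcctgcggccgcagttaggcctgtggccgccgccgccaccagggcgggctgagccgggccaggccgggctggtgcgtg
Each of the windows of *Hoxc4* and *Hoxb4* holds 1 match, and those of *Hoxa3* and *Hoxd9* hold 0. Of the 4 windows of genes called lower, 2 hold a match and those of *Hoxa2* and *Hoxb1* hold 0, and of the 3 windows of genes called higher 0 do. Over all windows of Hox genes, 5 of 18 hold a match (27.8%), beside 16.3% of the 32851 windows listed for all genes, and 3 of these 5 belong to genes that were not called (*Hoxa5*, *Hoxd8* and *Hoxd10*). The HOX-PBX motif TGATNNAT, searched on both strands, was in the windows of *Hoxa2* and *Hoxb1*, or 11.1% beside 8.85% of all windows. The windows of Hox genes are rich in CpG dinucleotides, with a median of 13.5 and a range of 4 to 45 beside a median of 7.0 over all windows, and the 4 printed hold 9, 14, 20 and 20. A match is a run of letters in this window and no measured binding site.

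Several called genes had dim signals. The 76 receptor genes of smell and taste on the arrays, taken as genes of other tissues, had a 95th percentile of 4.89 at E11.5 and 4.95 at E17.5. At E11.5, 18 Hox genes lay above this level on average, and at E17.5, 13 did. *Hoxa4*, *Hoxb4*, *Hoxb6*, *Hoxc4* and *Hoxc6* lay above it at E11.5 and below it at E17.5, while *Hoxa9* went from below to above. *Hoxb1* and *Hoxc5* were called lower while below it at both stages. *Hoxa5*, *Hoxa7*, *Hoxb5*, *Hoxb13*, *Hoxc9* and *Hoxd12*, which were not called, lay above it at both. Of the other genes not called, *Hoxd13* went from above to below. *Hoxa10*, *Hoxa11*, *Hoxa13*, *Hoxb7*, *Hoxc8*, *Hoxc10*, *Hoxc13*, *Hoxd1*, *Hoxd8*, *Hoxd10* and *Hoxd11* lay below it at both stages. A fall is harder to see there, although *Hoxb1* and *Hoxc5* were called lower. Of the genes of other lists named below, *Cbx5*, *Copz1*, *Phc3*, *Cbx2*, *Stra6*, *Lpcat1*, *Nkx2-6* and *Gdf11* also went from above this level to below it. Their falls were each read on a single probe set. Near this level a log2 difference can understate the change in RNA. The array signal depends on the probes, and the number of arrays limits the precision.

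Signal of mesenchymal markers differed between arrays of 1 stage, and at E11.5 some Hox genes ordered the arrays as the markers did. The mean log2 signal of 18 markers of lung mesenchyme was 7.65, 6.50, 7.21, 7.51 and 7.05 on E11.5 replicates 1 to 5 and 6.83, 7.84, 7.41, 6.96 and 7.50 on E17.5 replicates 1 to 5. The stages overlapped in this mean. At E11.5, 18 of the 32 Hox genes (56.2%) were highest on replicate 1, where the mesenchymal mean was highest, beside 32.7% of all genes, and 15 (46.9%) were lowest on replicate 2, where it was lowest, beside 17.1% of all genes. Those highest on replicate 1 were 11 of the 18 Hox genes above the level of the smell and taste receptors and 7 of the 14 at or under it, so dim genes had this order too. The full order of the 5 E11.5 arrays was that of the markers for 6 genes, *Hoxa2*, *Hoxa4*, *Hoxa5*, *Hoxb5*, *Hoxb6* and *Hoxd13*. At E17.5, 0 Hox genes had the full order of the markers, 6 (18.8%) were highest on replicate 2, beside 13% of all genes, and 10 (31.2%) were lowest on replicate 1, beside 20.9% of all genes. *Hoxc4*, by contrast, was lowest on replicate 1 at E11.5, as were *Hoxc6*, *Hoxb9* and *Hoxa7*.

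With the mesenchymal mean as a covariate in limma, added after seeing the data, 4 Hox genes were higher and 12 were lower. Of all 17813 genes, 6566 were then higher and 5587 lower. The genes gained were *Hoxb5* (-0.65, adjusted p = 0.011) and *Hoxd1* (-0.29, adjusted p = 0.019). The standard error of *Hoxb5* was 0.41 without the covariate and 0.19 with it. The difference of *Hoxb3* was -3.36 with the covariate, that of *Hoxa3* 1.72, that of *Hoxa2* -1.26 (adjusted p = 5.5e-05) and that of *Hoxc4* -4.72, while *Hoxa5* stayed uncalled at 0.07 (adjusted p = 0.76). Without E11.5 replicate 1 and E17.5 replicate 2, the arrays highest in mesenchymal markers, 4 Hox genes were higher and 10 were lower. Of all 17813 genes, 6483 were higher and 5280 lower without these 2 arrays. The mean is over markers that themselves changed between stages, with 5 higher and 8 lower, among them *Tcf21* (4.95), *Meox2* (2.96) and *Col1a2* (2.77) higher and *Foxf1* (-2.27) lower, so the covariate is not a measure of mesenchymal cells alone. On that list the T-box genes *Tbx5* (-2.07) and *Tbx4* (-1.10), transcription factors of lung mesenchyme, fell.

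**Figure D3:**
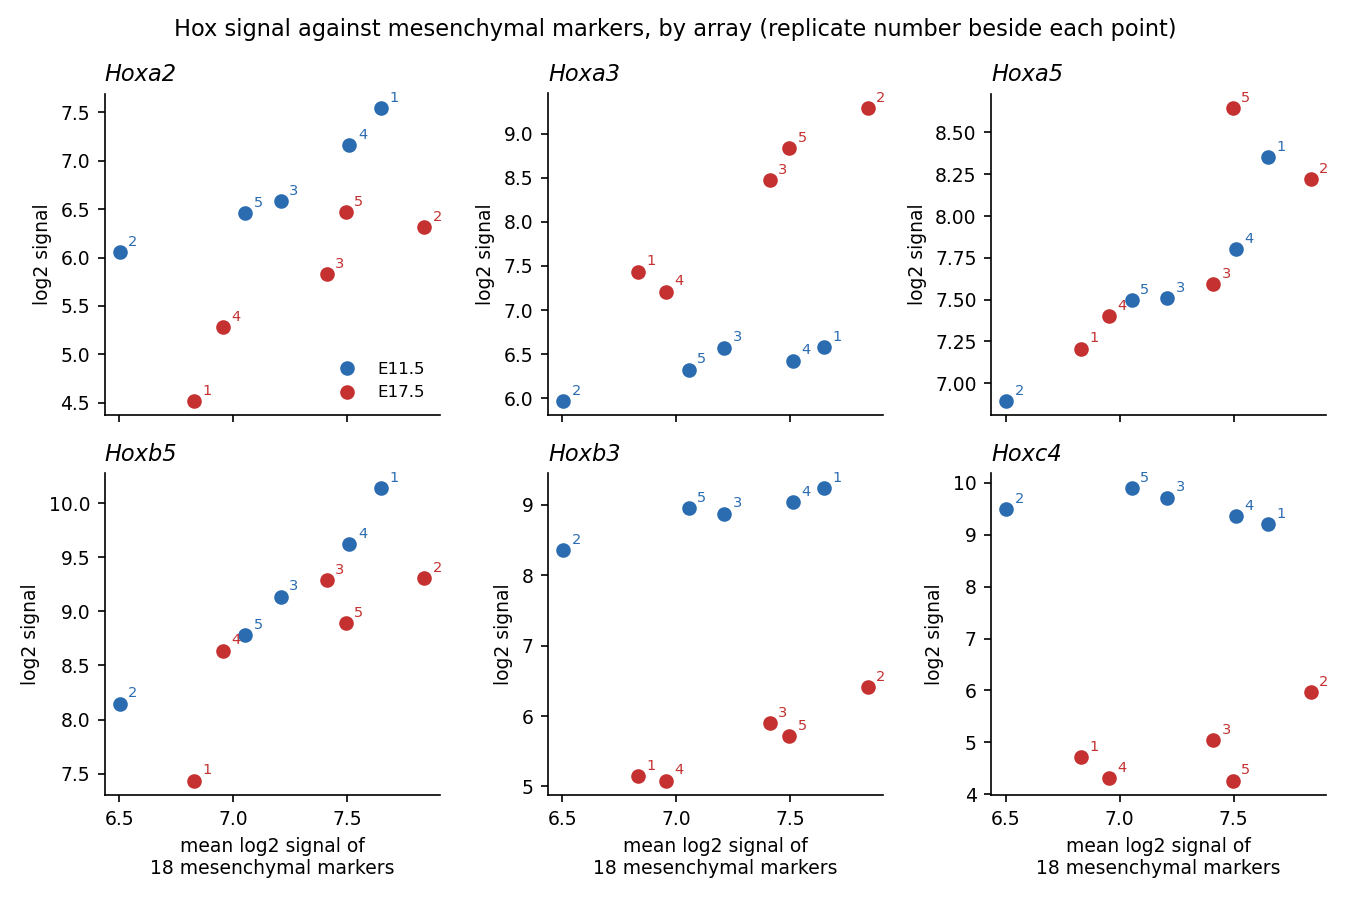
Log2 signal of 6 Hox genes on each array against the mean log2 signal of the 18 mesenchymal markers on the same array, with E11.5 in blue, E17.5 in red and the replicate number beside each point. *Hoxa2*, *Hoxa5* and *Hoxb5* follow the order of the markers at E11.5, *Hoxb3* and *Hoxc4* differ between stages by more than they vary along the markers, and *Hoxa3* at E17.5 spreads from 7.21 to 9.29.

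Markers of other cells also differed between the stages. Endothelial markers were higher at E17.5 for 11 of 12 genes, with list means of 5.25 to 6.33 on the E11.5 arrays and of 8.88 to 10.81 on those of E17.5. On E17.5 replicates 1 to 5 the endothelial mean was 9.32, 10.57, 9.74, 8.88 and 10.81. *Hoxa3* was likewise lowest on replicate 4 and highest on replicates 2 and 5. The order does not single out endothelial markers or *Hoxa3*. The mesenchymal mean was also highest on replicates 2 and 5, and *Hoxb3*, which fell, was also highest on replicate 2 and lowest on replicate 4. Leukocyte markers rose for 12 of 12 genes, from means of 6.05 to 6.72 to means of 10.25 to 10.84. Mesothelial means went from 5.82 to 7.07 up to 7.91 to 8.34, highest at E11.5 on replicate 1, and smooth muscle and pericyte means overlapped at 7.65 to 8.97 and 8.08 to 8.92. Erythroid means fell from 7.88 to 9.20 down to 5.17 to 6.01, and neural means from 5.46 to 5.98 down to 4.84 to 5.41. Epithelial means were 11.85 to 12.03 and 12.63 to 12.84, distal tip means were 9.83 to 10.15 and 9.35 to 9.79, and alveolar type 2 means were 7.59 to 7.93 and 12.14 to 12.39. Of the 9 alveolar type 2 markers 8 rose, while *Lpcat1* fell from 7.90 to 3.17 on the probe set kept for it. The part of these cells in the Hox differences was not tested.

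Of the TALE cofactors, which help set where Hox proteins bind, 1 of 8 measured genes rose (12.5%) and 6 fell (75%), beside 36.9% and 31.5% of all genes, with a median difference of -1.0. The counts were the same after quantile normalization and median centring, while 2 rose without E17.5 replicate 4, 5 fell with the replicate number as a block, and 0 rose and 4 fell among the 5 genes left without probe sets of the x, s and a kinds. *Pknox2* went from 7.38 ± 0.16 to 5.32 ± 0.21 (SD, n = 5 each), *Pknox1* from 8.68 ± 0.27 to 7.11 ± 0.07, and *Pbx3* from 11.45 ± 0.23 to 10.19 ± 0.08. *Meis3* (-1.20), *Meis1* (-0.80) and *Pbx2* (-0.23) also fell. *Meis2* rose from 7.42 ± 0.20 to 9.01 ± 0.90 (adjusted p = 0.0015, limma), with a wide spread at E17.5. *Pbx4* was not called.

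Of 17 measured genes of the retinoic acid pathway, 3 rose (17.6%) and 8 fell (47.1%), beside 36.9% and 31.5% of all genes, with a median of -0.31 (2 and 10 after quantile normalization). Without dim genes, 4 of the 11 left fell, beside 3404 of all 9705 genes left. Without probe sets of the x, s and a kinds, 1 of 11 rose and 5 fell, beside 5127 and 4602 of 14632 genes. The largest change was in *Crabp2*, which carries retinoic acid to its nuclear receptors and went from 12.74 ± 0.13 to 7.02 ± 0.36 (SD, n = 5 each), or 52.9-fold lower. *Stra6*, the cell-surface receptor that takes up retinol, fell by 3.40 and the receptor gene *Rarb* also fell (-2.80). Among the others that fell were the retinol carrier *Rbp4* (-1.56) and the receptor partner *Rxra* (-1.21). *Dhrs3*, which turns retinaldehyde back to retinol, rose by 2.68, the receptor *Rarg* rose by 1.88, and *Cyp26b1*, which degrades retinoic acid, rose by 1.10. *Aldh1a2*, the main enzyme of retinoic acid synthesis in the early embryo, was not called, with 7.17 ± 1.22 at E11.5 and 7.39 ± 0.51 at E17.5.

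Chromatin regulators of Hox clusters had called members in both directions, to be read beside 36.9% higher and 31.5% lower of all genes. Of 11 members of PRC2, which places the H3K27me3 mark, 6 rose (54.5%) and 3 fell (27.3%), with a median of 1.22 (6 and 5 after quantile normalization). Within this complex *Suz12* (-4.25) and *Aebp2* (-3.14) fell, whereas *Eed* (3.17) and *Ezh1* (2.92) rose. The catalytic subunit *Ezh2* went from 13.09 ± 0.05 to 11.70 ± 0.45 (SD, n = 5 each). Of 18 members of PRC1, which binds that mark or ubiquitinates H2A, 8 rose (44.4%) and 6 fell (33.3%), with a median of 0.23 (6 and 8 after quantile normalization, 7 and 6 after median centring). *Cbx2* (-3.96) and *Phc3* (-3.63) fell, and *Rnf2* (3.90) and *Pcgf3* (3.03) rose. Of 10 Trithorax genes and H3K27 demethylases, which oppose Polycomb, 4 rose and 4 fell, or 40% each (2 and 7 after quantile normalization), with *Kdm6a* (1.98) and *Men1* (0.79) higher and *Ash2l* (-1.65) and *Hcfc1* (-1.60) lower.

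**Figure D4:**
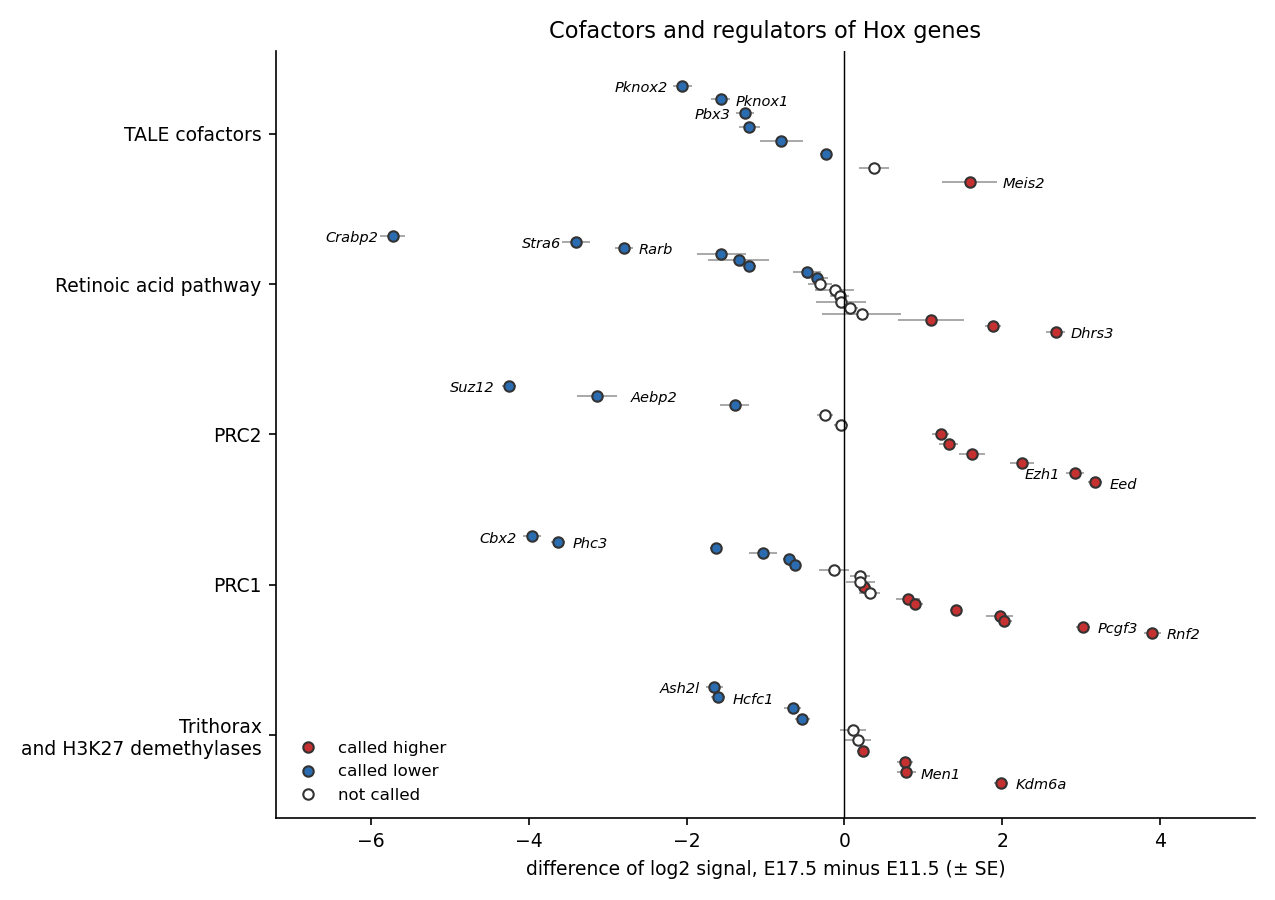
Difference of mean log2 signal, E17.5 minus E11.5, with standard error from limma, for each measured gene of 5 lists of Hox cofactors and regulators, red where called higher, blue where called lower and white where not called, with the 4 largest differences of each list named. The TALE cofactors lie mostly below 0 with *Meis2* as the called exception, and PRC2 and PRC1 have members on both sides of 0.

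Other axial regulators, such as the Cdx genes that act upstream of Hox clusters, were mostly dim. Of 10 measured, *Pdx1* rose (0.57) and *Gdf11* fell (-0.53), and under median centring 1 rose and 4 fell. With the replicate number as a block 0 fell, so *Gdf11* lost its call there. Of 16 listed non-coding genes of the Hox clusters, 2 were measured. *Hoxb5os*, which overlaps *Hoxb5* and *Hoxb6* in the RefSeq annotation, measured 9.21, 5.68, 6.37, 7.15 and 6.12 at E11.5 and 6.75, 8.11, 7.43, 7.26 and 7.23 at E17.5. E11.5 replicate 1 stood more than 2 above the rest of its stage, and the difference of 0.45 was not called (adjusted p = 0.5, limma). *Hoxa11os* differed by 0.22 (adjusted p = 0.068, limma).

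Genes beside the clusters were found in both directions. Of the 40 nearest measured protein-coding neighbours, 5 on each side of each cluster, 20 were higher (50%) and 9 lower (22.5%), beside 36.9% and 31.5% of all genes, with a median of 0.34. After quantile normalization 19 were higher and 14 lower, and the neighbours were not tested against the Hox genes. In cluster B, *Cbx1* beyond *Hoxb1* fell by 2.71, and *Ube2z* beyond *Hoxb13* rose by 3.33. Beside cluster C, which holds *Hoxc4*, *Cbx5* (-6.40) and *Copz1* (-4.40) fell on the low-paralog side, and *Atp5g2* (5.30) and *Calcoco1* (4.12) rose on the other. *Nfe2l2*, on the low-paralog side of cluster D, rose by 4.36. Neither direction kept to 1 side. *Atf7* (-1.27) and *Tarbp2* (-1.68) fell on the high-paralog side of cluster C. *Copz2* (1.77) and *Skap2* (1.84) rose on the low-paralog sides of clusters B and A. Of 70 homeobox genes of other families, 8 rose (11.4%) and 28 fell (40%), beside 36.9% and 31.5% of all genes, with a median of -0.18. The list by symbol also held 10 antisense or opposite-strand RNAs, of which 2 fell, and with them 8 of 80 rose and 30 fell (5 and 37 after median centring). Among the homeobox genes *Isl1* (-5.27), *Nkx2-6* (-2.35) and *Zfhx4* (-2.32) fell, and *Meox2* (2.96) rose. The probe sets shared by *Hoxd3* and *Hoxd4* differed by -0.37 and -0.11, and the one shared by *Hoxb7* and *Hoxb8* by 0.15, and these probe sets were not in the test.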

How the data were processed

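RNA was amplified and labelled by the authors with NuGEN kits, hybridised to Affymetrix mouse arrays and analysed with Bioconductor in R. What the authors deposited is a table of log2 signals, with 21204 probe sets and 10 arrays. The method of background correction and normalization, and how probe sets were picked, were not given in the sources used here. Gene names came from the annotation of the platform, with 17981 naming 1 gene, 514 several and 2709 none. The brightest probe set per gene was kept. Entrez identifiers of 17664 of 17813 genes were found in RefSeq (GRCm38.p6).

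Stages were compared with limma 3.58.1 in R 4.3.3 (lmFit and eBayes, E17.5 minus E11.5, no other term), with Benjamini-Hochberg adjustment over 17813 genes. The test was tried on simulated data. Figures used Python 3.11.15 and matplotlib 3.10.9. The median log2 signal was 7.01 to 7.14 on E11.5 arrays and 7.14 to 7.23 on E17.5 arrays, and correlations across genes were 0.819 to 0.847 between stages and at least 0.984 within them. The Hox genes and the gene lists were chosen with earlier results of these data known. Every measured Hox gene is named, with values on each array for called genes that differ by at least 1 and for *Hoxa3*, *Hoxa4*, *Hoxa5*, *Hoxb4* and *Hoxb5*, and of other lists up to 4 members with the largest difference and those a small count needs. *Rxra*, *Rarg*, *Cyp26b1*, *Rbp4*, *Aldh1a2*, *Ezh2*, *Meis3*, *Meis1*, *Pbx2*, *Tbx4*, *Tbx5*, *Cbx1*, *Ube2z*, *Calcoco1*, *Atf7*, *Tarbp2*, *Copz2* and *Skap2* were added for their roles or places after their values were seen. Alternatives were other scalings and probe set choices, leaving out dim genes or multi-transcript probe sets, array weights, trend and robust moderation, a test against 2-fold, a replicate block, and leaving out each array.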

Additional observations from a re-analysis of the deposited data

Results flagged for a closer look

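On 3 of 64 groups of 5 arrays, 1 array stood apart from the other 4, with a gap to its nearest neighbour above 0.71 of the range of the group, which chance gives in about 1 of 20 groups. *Hoxa10* measured 4.129 on E11.5 replicate 1, and the nearest other array was at 3.431. *Hoxb9* measured 5.772 on the same array, below the nearest other at 6.098. *Hoxc6* measured 5.178 on E11.5 replicate 3, above the nearest other at 4.972. The rise of *Hoxb9* and the fall of *Hoxc6* passed the threshold without each of these arrays.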

How the results depend on the processing

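Of the 14 called Hox genes, 13 stayed called under each alternative that could give them a value, apart from the test against a 2-fold change, and no difference changed sign while called. Against 2-fold, 0 Hox genes were higher and 5 lower, beside 3437 higher and 2045 lower of all 17813 genes. Of the 194 genes in the pathway, homeobox and neighbour lists, 25 were higher and 22 lower in that test, beside 51 and 67 in the main one. Without dim genes 5 Hox genes were left, with 1 higher and 2 lower, beside 4739 higher and 3404 lower of the 9705 genes left. Their median was -0.45. By group it was 1.04 in cluster A (n = 2), -1.84 in B (n = 2), -4.68 in C (n = 1, *Hoxc4*) and -3.24 for paralogs 1 to 4 (n = 3). The filter is a cut at 7.18 in the mean signal over all arrays. Mean signals at E11.5 and E17.5 were 9.54 and 4.86 for *Hoxc4*, 8.89 and 5.65 for *Hoxb3*, and 6.38 and 8.25 for *Hoxa3*. Each of these genes lay above the cut at only 1 stage, so these medians do not show whether the differences hold for brighter genes. In the lists 33 of 88 genes were lower. Median centring, which moved the median of all genes by -0.13, gave 4 higher and 12 lower Hox genes, -0.22 in cluster C and -0.14 for paralogs 9 to 13. Over all 17813 genes it gave 5920 higher and 6576 lower, beside 6568 and 5609 in the main test, so more genes were lower in general. Without probe sets of the x, s and a kinds the median of paralogs 1 to 4 was -2.19. *Hoxa2* also lost its call with array weights (-0.81, adjusted p = 0.061). Leaving out each array gave 4 to 5 higher and 9 to 11 lower Hox genes, medians of -0.15 to -0.06 over all Hox genes, -0.06 to 0.09 in A, -0.83 to -0.69 in B, -0.22 to -0.06 in C (-0.22 without E17.5 replicate 3), -0.12 to 0.03 in D, -1.94 to -1.59 for paralogs 1 to 4, -0.24 to -0.09 for 5 to 8 and -0.03 to 0.03 for 9 to 13, and 47 to 52 higher and 61 to 67 lower genes in the lists. The medians of A, D and paralogs 9 to 13 lie near 0 and turned positive without single arrays, A without E11.5 replicate 3 or E17.5 replicate 2, D without E11.5 replicate 1 or 4 or E17.5 replicate 3 or 4, and paralogs 9 to 13 without E11.5 replicate 1, 2, 3 or 4 or E17.5 replicate 2, 3 or 4, and those of D (0.03) and paralogs 9 to 13 (0.05) also after quantile normalization. Over all 17813 genes, leaving out each array gave 6356 to 6596 higher and 5384 to 5616 lower. The causes were not tested.

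The replicate numbers did not pair the arrays, since deviations of arrays of the same number correlated at -0.29 to 0.07 and 0 arrays correlated best with their own number. With the number as a replicate block, 4 Hox genes were higher and 9 lower, with *Hoxa2* lost (-1.08, adjusted p = 0.072, limma). In the lists 48 were then higher and 62 lower, and of all 17813 genes 6385 were higher and 5349 lower.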
